A study of Mus musculus with 20 samples.

Results

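The genes examined here are 47 genes of the cell cycle and of DNA replication, chosen by name with earlier results of these data known. They fall into 23 S phase genes, which prepare and copy the DNA, and 24 mitosis genes, which divide the copies. All 47 were found among the 32991 genes that had a summed value in the colon of 20 mice. The value of a gene in a mouse is the FPKM (fragments per kilobase of transcript, scaled to the depth of the library) summed over its Ensembl transcripts. Differences are given on the log2(FPKM + 1) scale, which understates the change of genes with low values.

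All mice were male C57BL/6 mice and were gavaged for 91 days. Control mice received distilled water and no carcinogen. PZH mice received the traditional Chinese formula Pien Tze Huang at 250 mg/kg/d and no carcinogen. AOM/DSS mice, labelled Model, received distilled water, azoxymethane (AOM, a colon carcinogen) at 12.5 mg/kg and 2% dextran sulfate sodium (DSS, which injures the colon lining) starting 7 days later, in cycles of 5 days of DSS and 2 weeks of water. PZH + AOM/DSS mice, labelled Model + PZH, received AOM, DSS and 250 mg/kg/d PZH. Each group held 5 mice, with 1 RNA library per mouse, depleted of ribosomal RNA. Age and the part of the colon taken are not given in the sources used here, nor is whether a piece held tumour.

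In G1, cyclin E with its kinase and the E2F transcription factors turn on the genes that S phase needs. Origins are licensed when Cdc6 and Cdt1 load the Mcm2 to Mcm7 ring, and the ring becomes the working helicase when Cdc45 and the GINS proteins join it. In the colon, most dividing cells are progenitors of the lower crypt, and activated lymphocytes divide as well. Mitosis genes are turned on later, by other factors, including Foxm1 and the complex of B-Myb (Mybl2) with MuvB, which binds the CHR element.

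Promoters are shown for the genes of each class with the largest differences between AOM/DSS and Control mice, so that the letters known to be bound by cell cycle factors can be read beside the values. The sequences are RefSeq windows on GRCm38.p6, from 250 bases before to 50 bases after the start, printed in the direction of the gene. A window existed for 19 of the 23 S phase genes and for 19 of the 24 mitosis genes. Gins1, the second S phase gene by size of change, had none, and Mcm3 is shown in its place. Capitals mark matches, on either strand, to an E2F site (TTTCGCGC, TTTGGCGC, TTTCCCGC or TTTGCCGC), to the CHR (TTTGAA) or to the CCAAT box (CCAAT).
Cdc45 (S phase), chr16:18811923-18812222, minus strand: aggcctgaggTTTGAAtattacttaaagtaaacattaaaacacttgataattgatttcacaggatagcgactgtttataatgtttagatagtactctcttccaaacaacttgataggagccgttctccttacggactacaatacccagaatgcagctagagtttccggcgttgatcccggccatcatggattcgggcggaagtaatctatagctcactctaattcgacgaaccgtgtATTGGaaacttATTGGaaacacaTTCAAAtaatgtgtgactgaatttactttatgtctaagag
Mcm3 (S phase), chr1:20820263-20820562, minus strand: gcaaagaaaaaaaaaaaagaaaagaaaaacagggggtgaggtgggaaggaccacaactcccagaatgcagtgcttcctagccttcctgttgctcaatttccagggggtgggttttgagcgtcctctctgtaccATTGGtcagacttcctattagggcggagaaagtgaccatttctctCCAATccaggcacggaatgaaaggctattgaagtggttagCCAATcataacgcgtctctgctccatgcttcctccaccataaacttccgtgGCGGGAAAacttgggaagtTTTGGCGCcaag
Plk1 (mitosis), chr7:122159185-122159484, plus strand: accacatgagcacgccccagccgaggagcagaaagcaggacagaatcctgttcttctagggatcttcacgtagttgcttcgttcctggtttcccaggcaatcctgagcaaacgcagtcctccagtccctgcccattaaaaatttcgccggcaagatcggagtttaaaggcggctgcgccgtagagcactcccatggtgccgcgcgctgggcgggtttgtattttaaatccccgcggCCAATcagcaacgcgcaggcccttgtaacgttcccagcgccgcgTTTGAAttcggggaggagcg
Cenpe (mitosis), chr3:135212313-135212612, plus strand: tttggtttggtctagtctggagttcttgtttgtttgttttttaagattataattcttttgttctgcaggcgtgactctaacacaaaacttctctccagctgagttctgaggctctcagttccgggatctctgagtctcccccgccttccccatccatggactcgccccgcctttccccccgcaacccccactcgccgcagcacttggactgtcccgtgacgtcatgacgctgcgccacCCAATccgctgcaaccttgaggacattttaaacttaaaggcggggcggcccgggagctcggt

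The Mcm3 window held 2 E2F matches, from 20 to 27 and from 39 to 46 bases after the start, and 3 CCAAT matches. The Plk1 window held a CCAAT match from 14 to 10 bases before the start and a CHR match from 31 to 36 bases after it. Cenpe had a CCAAT match only, and Cdc45 had 2 CHR and 2 CCAAT matches but no E2F match. Over the class, 9 of 22 S phase windows (40.9%) held an E2F match, against 1 of 20 mitosis windows (5.0%) and 2.26% of all 32851 windows in the table. The CHR was matched in 3 of 22 S phase windows (13.6%), 15 of 20 mitosis windows (75.0%) and 17.9% of all windows. The CCAAT box was matched in 63.6% of S phase windows, 90.0% of mitosis windows and 37.4% of all. No match overlapped another in the windows shown. A match is a description of the letters in the window.

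Depth is not given with FPKM. The steps in which low values fall gave a relative depth that differed by 1.27-fold between the deepest and the shallowest mouse, and 65.8 to 69.8% of these values lay on whole steps (within 0.02 of a step). No files were identical. The extraction text of the labels names the abdominal aorta, but genes expressed in gut epithelium were high in each mouse. They were Cdh1 (214.5 to 310.5 FPKM), Vil1 (156.9 to 273.9 FPKM), Krt20 (166.2 to 586.7 FPKM) and Muc2 (233.8 to 2026 FPKM). Epcam, another epithelial gene, was listed at 0 in 13 of 20 mice and at 232.6 to 864.7 FPKM in the others. Fragments given to assembled transcripts without a gene name are missing from the sums, and their part in such values was not tested. Among the 47 genes, Plk1, Kif20a, Cdc45 and Mki67 spread over more than 10-fold inside a group, while the other genes stayed within 4.98-fold. Squamous markers (8 genes) summed to 411.4 FPKM in Control mouse 17 and 321.5 in Control mouse 50, against 4.33 to 6.18 in the other Control mice.

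The comparison of AOM/DSS with Control mice asks what the carcinogen and colitis did to these genes. In AOM/DSS mice, 14 of 23 S phase genes were higher and none was lower, against 16.4% of all 15812 genes tested that were called higher. No mitosis gene of 24 was called by limma, and 2 (Bub1b and Cenpe) were higher at an unadjusted p under 0.05, as were 24.2% of all genes. The median log2 fold change was 0.75 for S phase genes, 0.22 for mitosis genes and 0.09 for all genes tested. Leaving out 1 mouse moved the mitosis median from 0.14 (without AOM/DSS mouse 23) to 0.31 (without Control mouse 50). It moved the S phase median from 0.60 (without Control mouse 48) to 0.87 (without AOM/DSS mouse 30). Over all genes, 2596 were called higher and 1143 lower, and with median of ratios scaling, which moved the median of all genes to 0.01, 1936 higher and 1587 lower. With that scaling the class medians were 0.64 and 0.12, and 12 S phase genes were called. A gene was called at an adjusted p under 0.05 (limma, Benjamini-Hochberg over all genes tested). The difference between the classes was itself not tested. The groups did not overlap in 9 S phase genes, 13% of all genes being higher without overlap, and in no mitosis gene. In bulk tissue, more cells of a dividing type and more RNA per cell cannot be told apart.

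Of the 8 licensing genes, the ring subunits Mcm2 to Mcm7 and the loader Cdc6 were called, and Cdt1 was not (log2 fold change 0.19, 95% confidence interval −0.18 to 0.57). Mcm3 (chromosome 1, 20802968 to 20820312 on GRCm38, up to 17 exons) had 10.9, 16.7, 12.3, 7.52 and 13.3 FPKM in Control mice and 30.01, 19.99, 24.0, 26.9 and 24.0 FPKM in AOM/DSS mice. The lowest AOM/DSS value exceeded the highest Control value. The means were 12.2 ± 3.35 and 25.0 ± 3.74 FPKM (SD, n = 5), which gave a log2 fold change of 1.01 with a standard error of 0.19 (limma, adjusted p = 0.00323). Mcm7 (chromosome 5, 138164583 to 138172422) ranged from 17.1 to 28.7 FPKM in Control and from 31.9 to 41.6 FPKM in AOM/DSS mice, and its log2 fold change of 0.81 had the smallest adjusted p of the 47 genes (0.00245). The other ring subunits differed by 0.75 (Mcm6) to 0.87 (Mcm2), so that the means of the ring genes were 1.72 to 2.06 times those of Control mice. Mcm4 and Mcm6 also did not overlap, while Control mouse 37 reached into the AOM/DSS range for Mcm2 and Mcm5.

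The genes that turn the ring into a helicase gave the largest differences. Gins1 (chromosome 2, 150905400 to 150931280), a GINS subunit, had 3.95, 5.77, 2.83, 3.03 and 5.27 FPKM in Control mice and 10.8, 6.74, 9.20, 10.4 and 10.2 FPKM in AOM/DSS mice. The groups did not overlap. The difference was 1.04 on the log2 scale, with a standard error of 0.19 (limma, adjusted p = 0.00347). Cdc45 (chromosome 16, 18780447 to 18811987) had 0.349, 4.72, 5.195, 2.28 and 3.27 FPKM in Control and 9.67, 6.02, 8.75, 8.78 and 6.82 FPKM in AOM/DSS mice. Its groups did not overlap and its log2 fold change of 1.28 was the largest, but it is 1 of the 4 genes that spread widely inside groups. Its adjusted p of 0.0292 (limma) was 0.379 when only 1 transcript per gene was used. The call was also lost without a filter on low values (0.0558), with a pseudocount of 0.1 (0.0591), with all 20 mice in one model (0.0682) and without any 1 of 5 mice (Control mouse 48, AOM/DSS mice 23, 33, 44 and 52), at an adjusted p of up to 0.0664. Gins2, another GINS subunit, had a log2 fold change of 0.31 (−0.08 to 0.71) and was not called.

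Among G1/S regulators, cyclin E1 (Ccne1) had 3.16, 3.93, 3.43, 2.21 and 3.45 FPKM in Control and 9.22, 4.39, 6.92, 6.22 and 7.40 FPKM in AOM/DSS mice. The groups were apart, and the log2 fold change of 0.87 had a standard error of 0.18 (limma, adjusted p = 0.00686). The transcription factors Mybl2 (0.80) and E2f1 (0.67) were also called, Mybl2 without overlap. The calls of E2f1 and Cdc6 were lost under median of ratios scaling, without a filter on low values and with 1 transcript per gene, and without any 1 of 6 mice for E2f1 and of 7 mice for Cdc6. That of Mcm6 was lost with 1 transcript per gene (adjusted p = 0.123), and that of Hells without Control mouse 48 or AOM/DSS mouse 23, 44 or 52. Ccne2, the other cyclin E gene, differed by 0.44 (adjusted p = 0.0974), and E2f2 by −0.15 (−0.52 to 0.22). E2f2 and Tk1 were the 2 S phase genes with the lowest differences.

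Pcna, the sliding clamp that the study also stained as a protein, had the highest mean FPKM of the 47 genes in each group. It stood at 73.0, 114.7, 71.7, 49.9 and 80.8 FPKM in Control mice and at 112.0, 75.6, 101.8, 115.9 and 113.1 FPKM in AOM/DSS mice. AOM/DSS mice were mostly higher, but Control mouse 37 was as high as they were and AOM/DSS mouse 30 lay among Control mice. The means were 78.0 ± 23.5 and 103.7 ± 16.6 FPKM (SD, n = 5), and neither test was passed. The difference was 0.44 on the log2 scale (95% confidence interval −0.005 to 0.88, adjusted p = 0.143 with limma), and an exact two-sided permutation test gave p = 0.0952, or 0.238 adjusted over 5 comparisons, with 0.00794 the smallest p possible. Without Control mouse 37 the difference was 0.59, the adjusted p 0.0337 (limma) and the exact permutation p 0.0238. Without AOM/DSS mouse 30 the difference was 0.55 and the exact permutation p 0.0476, and limma did not call Pcna. The pseudogene Pcna-ps2, whose reads Pcna could share, stood at 1.42 to 4.99 FPKM.

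Nucleotide supply was uneven. Rrm2, the regulated subunit of ribonucleotide reductase, ranged from 6.70 to 14.8 FPKM in Control and from 15.1 to 23.9 FPKM in AOM/DSS mice and was called (log2 fold change 0.84). Rrm1, the other subunit, had a log2 fold change of 0.61 that missed the threshold (adjusted p = 0.0534). Rrm1 was called with the 1 FPKM filter, with quality weights, with all 20 mice in one model, without Control mouse 37 and without AOM/DSS mouse 30, and Ccne2 with all 20 mice and without AOM/DSS mouse 30. Thymidylate synthase (Tyms) differed by 0.28 (−0.19 to 0.76) and thymidine kinase (Tk1) by −0.004 (−0.39 to 0.38), its mean being 27.5 FPKM in Control and 27.6 FPKM in AOM/DSS mice. Of the chromatin genes, the helicase Hells was called (0.79) and Uhrf1, which reads DNA methylation, was not (0.36, −0.41 to 1.13). In all, 9 of the 14 calls were made under each of 17 alternatives, namely Ccne1, Gins1, Mybl2, Rrm2, Mcm2, Mcm3, Mcm4, Mcm5 and Mcm7. Mcm2 and Mcm5 were lost in a further alternative, the removal of Control mice 17 and 50.

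**Figure D1:**
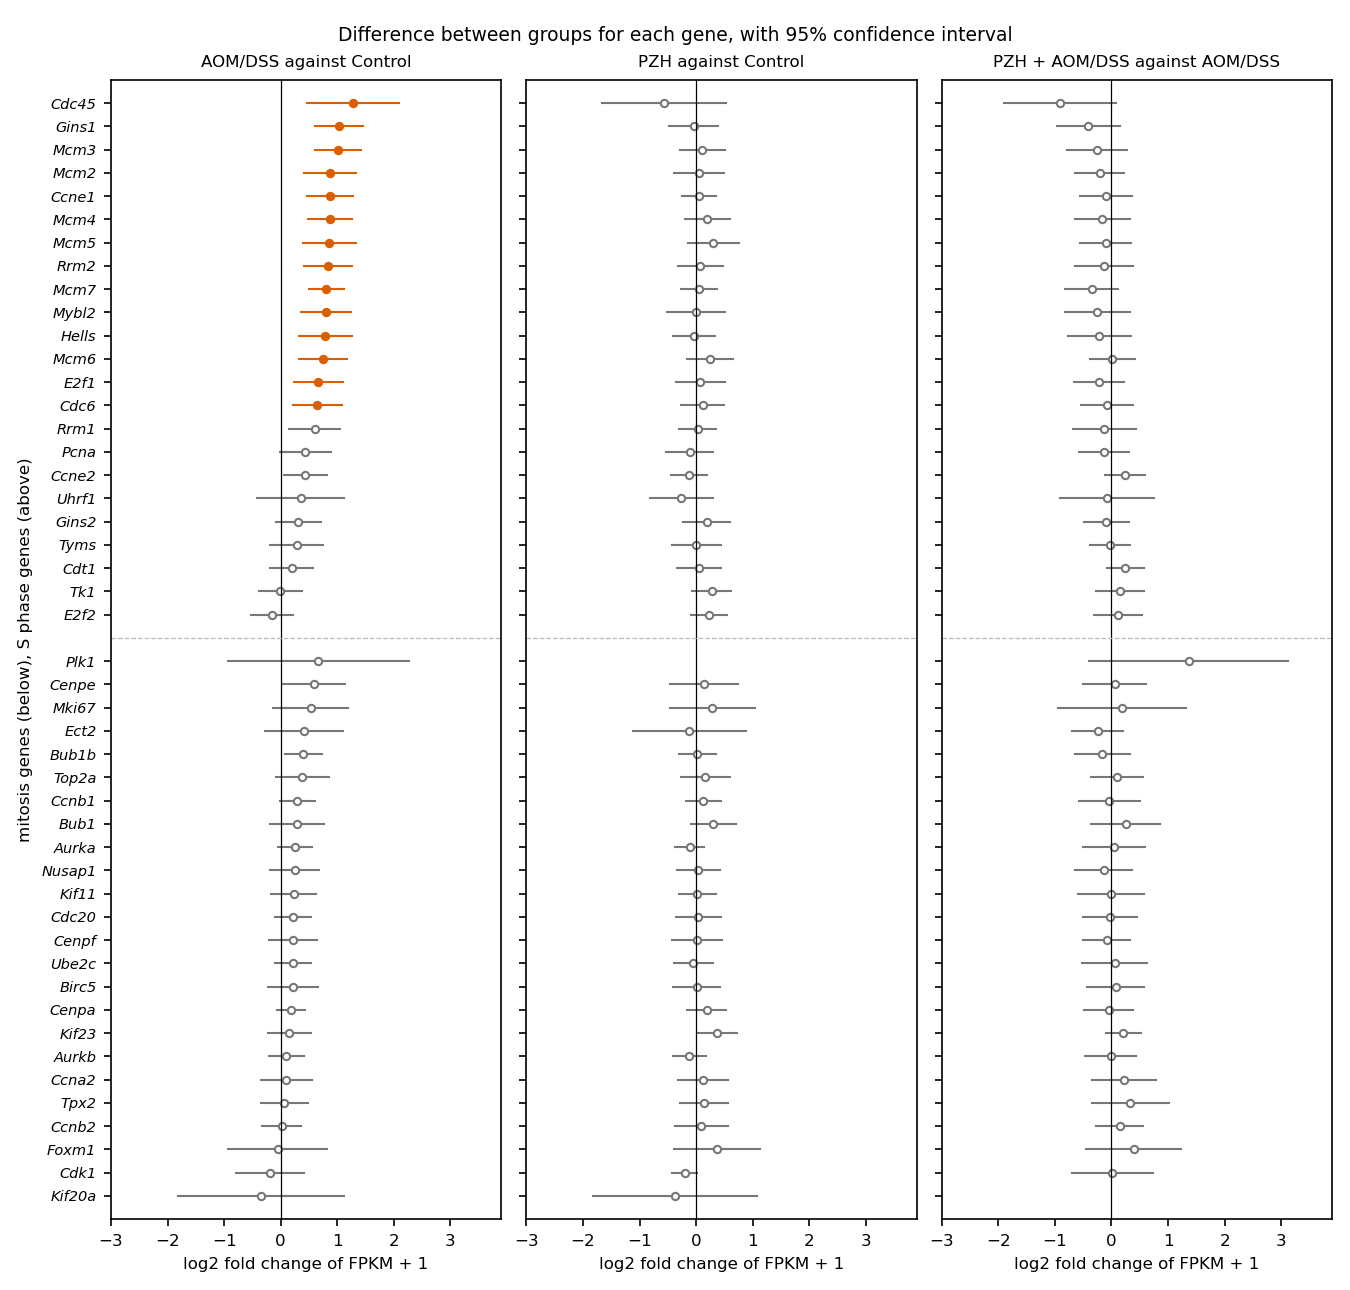
Log2 fold change of FPKM + 1 with its 95% confidence interval for each gene (rows) in 3 comparisons (panels), S phase genes above the dashed line and mitosis genes below. Filled orange points passed an adjusted p under 0.05: 14 S phase genes in AOM/DSS against Control and no gene in the other panels.

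For mitosis genes, differences between AOM/DSS and Control mice were positive in 21 of 24, beside 9485 of all 15812 genes tested. No mitosis gene passed the test. Among mitotic cyclins and kinases, the median log2 fold change was 0.10 over 7 genes, with cyclin B2 (Ccnb2) at 0.02 (−0.32 to 0.36) and Cdk1, the main mitotic kinase, at −0.19 (−0.80 to 0.42). Plk1, a kinase of mitotic entry, had the largest estimate, 0.67, and an interval from −0.94 to 2.27. Its values were 0.271, 7.03, 0.409, 0.460 and 0.413 FPKM in Control and 17.7, 2.02, 0.887, 0.816 and 0.536 FPKM in AOM/DSS mice, so that 1 mouse of each group stood far above the others.

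The kinetochore motor Cenpe had 5.55, 2.89, 4.28, 2.41 and 6.49 FPKM in Control and 6.99, 7.18, 8.51, 7.47 and 3.99 FPKM in AOM/DSS mice. In AOM/DSS, 4 of 5 mice were above all Control mice, and the log2 fold change of 0.59 (0.04 to 1.14) had an adjusted p of 0.116 (limma). Mki67, the Ki-67 gene, had 5.17, 2.095, 3.05, 2.95 and 3.42 FPKM in Control and 2.69, 4.43, 3.95, 6.16 and 10.9 FPKM in AOM/DSS mice. The groups overlapped, and the log2 fold change was 0.53 (−0.13 to 1.18, adjusted p = 0.232). Topoisomerase II alpha (Top2a) had means of 17.04 ± 4.62 and 22.6 ± 6.28 FPKM (SD, n = 5), a log2 fold change of 0.38 (−0.09 to 0.85). Foxm1 differed by −0.05 (−0.93 to 0.82). Without Control mouse 50, Bub1b was called (0.49), and without AOM/DSS mouse 30, Ccnb1 (0.41).

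**Figure D2:**
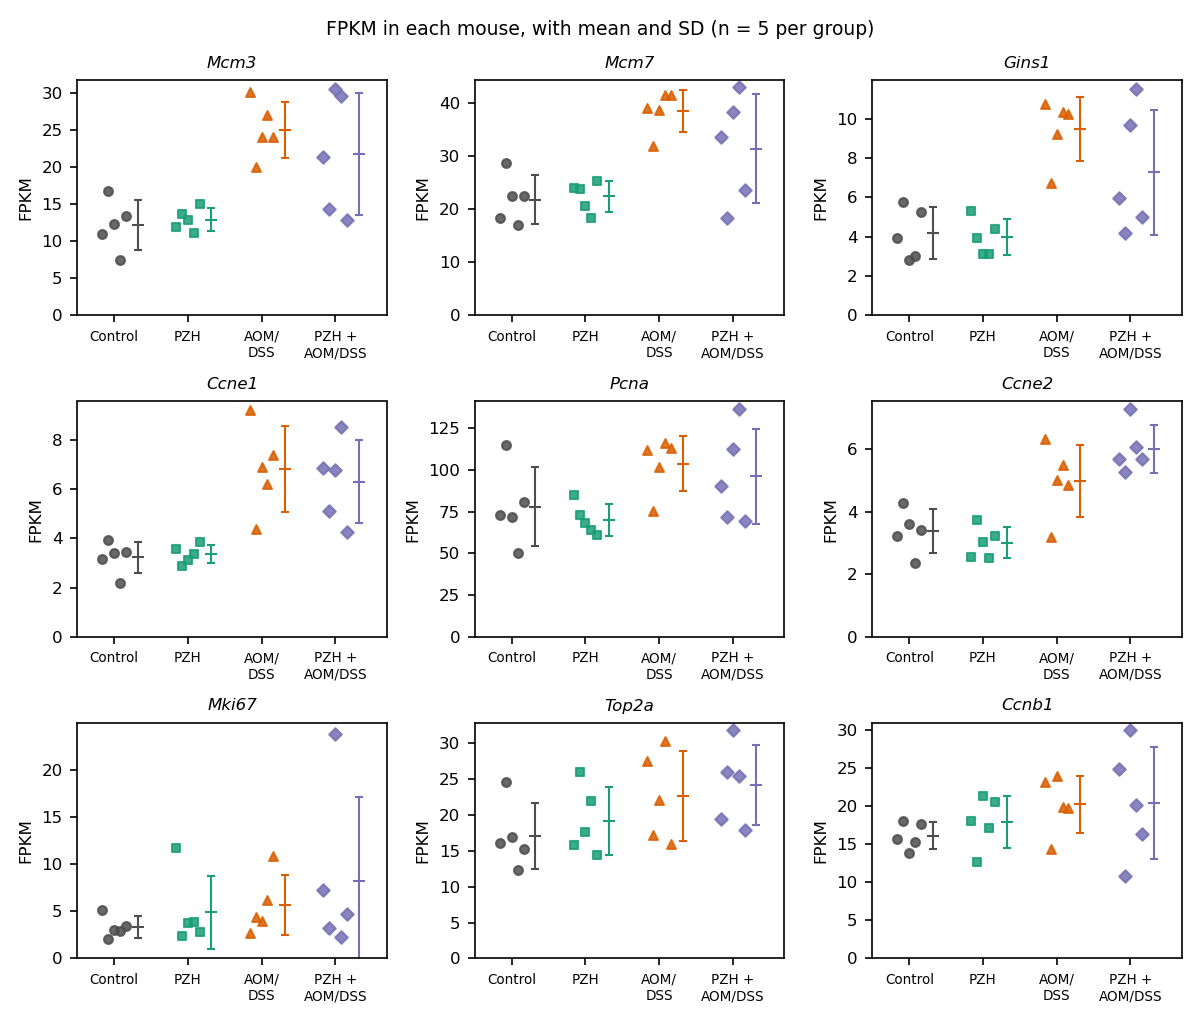
FPKM of 9 genes in each mouse (points, 5 per group), with the mean and SD beside them; each vertical axis starts at 0. Mcm3, Mcm7, Gins1 and Ccne1 separate AOM/DSS from Control mice, Ccne2 separates PZH + AOM/DSS from Control and PZH mice, and Pcna, Mki67, Top2a and Ccnb1 overlap between groups.

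The level of a class, the mean log2(FPKM + 1) over its genes in a mouse, shows the same as a description without a test. For S phase genes it was 3.17, 3.65, 3.26, 2.85 and 3.35 in Control and 4.18, 3.485, 3.92, 4.00 and 3.87 in AOM/DSS mice, so that only AOM/DSS mouse 30 and Control mouse 37 overlapped. For mitosis genes the Control range was 3.09 to 3.61 and the AOM/DSS range 3.35 to 3.88. The S phase level minus the mitosis level was 0.25 ± 0.20 in AOM/DSS mice against −0.16 ± 0.16 in Control mice (SD, n = 5). It was 0.03 ± 0.21 with both PZH and AOM/DSS and −0.22 ± 0.33 with PZH alone. Some mice were at the edge of their group for many genes. Control mouse 48 had the lowest value of its group in 30 of 47 genes and Control mouse 37 the highest in 26, while AOM/DSS mouse 23 was highest in 27 and AOM/DSS mouse 30 lowest in 27.

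**Figure D3:**
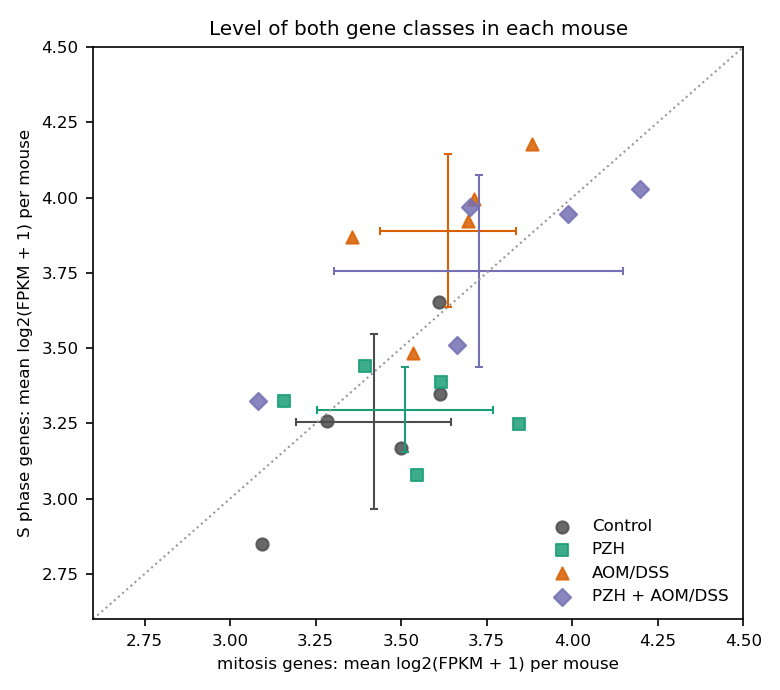
Level of S phase genes (vertical axis) against that of mitosis genes (horizontal axis), each the mean log2(FPKM + 1) in 1 mouse; crosses give group means and SD (n = 5) and the dotted line equal levels. AOM/DSS mice lie mostly above the line and above Control and PZH mice, and PZH + AOM/DSS mice spread along it from 3.32 to 4.03 in the S phase level.

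The further lists below were also chosen with earlier results of these data known, so they are no independent check. Among 35 further S phase genes, 14 were called higher and none lower in AOM/DSS mice, where 16.4% of all genes were called higher. The median log2 fold change of these 35 genes was 0.43. Of the called genes, the largest differences were those of the exonuclease Exo1 (0.70) and the origin recognition subunit Orc1 (0.69). Among 48 further mitosis genes, 7 were called higher and 1 lower, with a median of 0.24. That count is no larger a share than the 16.4% of all genes. The called genes included Cks1b, a subunit of cyclin-dependent kinase complexes (0.77), lamin B1 (Lmnb1, 0.70) and securin (Pttg1, −0.51).

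Of 9 G1 entry genes, Cdk4, the partner of D cyclins, was called. It ranged from 29.1 to 46.9 FPKM in Control and from 45.0 to 78.2 FPKM in AOM/DSS mice (log2 fold change 0.84). Of 20 cell cycle brakes, 2 were called higher, the kinase inhibitor genes Cdkn2a (2.98) and Cdkn1c (1.82), and 1 was called lower. It was Ccng2, an atypical cyclin of quiescent cells, which fell by 1.00 on the log2 scale. Over all 15812 genes tested, 16.4% were called higher and 1143 genes lower, and neither list exceeded these shares. The median of the brakes was −0.06, with 13 of 20 differences negative. Cdkn2a stood at 0 to 0.131 FPKM in Control and at 2.72 to 16.2 FPKM in AOM/DSS mice, with no overlap.

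Several lists of cell type markers also differed between these groups, and others did so less or went both ways. Over all 15812 genes tested, 16.4% were called higher, 1143 genes were called lower and 13% were higher without overlap. Crypt base and progenitor markers (6 genes, 5 called higher) summed to 41.3 to 61.5 FPKM in Control and 112.6 to 160.0 FPKM in AOM/DSS mice. Leukocyte markers (10 genes, 4 called higher) summed to 53.3 to 146.6 FPKM in Control and 106.1 to 201.5 FPKM in AOM/DSS mice, and B cell and germinal centre markers (4 of 10 called higher) to 5.77 to 39.8 and 18.1 to 46.2 FPKM. Control mouse 37, which held the highest S phase level of its group, had the highest leukocyte and B cell sums of its group. The same held for PZH + AOM/DSS mouse 15. In AOM/DSS mice, mouse 30 had the highest of both sums (201.5 and 46.2 FPKM) but the lowest S phase level. In PZH mice, mouse 8 had the highest of both sums and mouse 53 the highest S phase level. Neutrophil markers (4 of 5 tested called higher, each without overlap) summed to 81.0 to 398.9 FPKM in Control and 238.5 to 660.7 FPKM in AOM/DSS mice. Most of each Control sum was Ly6g, which was not called and went the other way, with means of 175.5 FPKM in Control and 104.1 FPKM in AOM/DSS mice. Colon epithelium markers (5 of 11 tested called lower) summed to 5028 to 9007 and 3242 to 6708 FPKM. These sums depend on 2 uneven entries. Krt8 ran from 0.105 to 3071 FPKM in Control and from 0.74 to 1873 FPKM in AOM/DSS mice. Epcam was listed at 0 in each Control mouse and at up to 843.8 FPKM in AOM/DSS mice. Smooth muscle markers fell, with all 6 called. Goblet markers (1 of 6 called higher, about the share of all genes) went both ways, as did fibroblast markers (2 of 6 called higher and 1 lower). Endothelium markers had 2 of 5 called higher. None of 6 squamous markers tested was called, and all 8 summed to 27.3 to 51.8 FPKM in AOM/DSS mice. The part of these cells in the S phase difference was not tested. Without Control mice 17 and 50, whose squamous markers were high, 9 S phase genes were called, all among the 14 (Mcm2, Mcm5, Cdc6, Hells and E2f1 were lost). In that setting 3 mitosis genes were called, Ect2 (0.83), Bub1b (0.54) and Cenpe (0.89). Over all genes, 1881 of 15381 were called higher there, and the mitosis genes came to about that share.

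PZH alone was compared with Control to see whether it changed these genes in mice without carcinogen. No S phase gene of 23 and no mitosis gene of 23 tested was called by limma, beside 0.00645% of 15506 genes. At an unadjusted p under 0.05 there was no S phase gene and 1 mitosis gene, Kif23 (log2 fold change 0.37, 0.03 to 0.72, adjusted p = 0.546), beside 8.84% of all genes. Kif23, a motor of cytokinesis, had 2.24, 2.50, 3.37, 3.43 and 4.76 FPKM in Control and 4.81, 4.21, 4.52, 4.38 and 4.11 FPKM in PZH mice. Only Control mouse 50 reached the PZH range.

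The medians were 0.05 for S phase and 0.04 for mitosis genes. Leaving out 1 mouse moved them from −0.05 and −0.02 (both without Control mouse 48) to 0.15 (without Control mouse 37) and 0.14 (without Control mouse 50). The largest S phase estimates were those of Cdc45 (−0.57, −1.67 to 0.53), Mcm5 (0.31, −0.15 to 0.76) and Tk1 (0.28, −0.07 to 0.62), and the smallest those of Mybl2 (−0.002) and Tyms (0.01). Foxm1 (0.37) and Kif20a (−0.37) had the largest mitosis estimates beside Kif23, and Birc5 and Cenpf lay at 0.01 and 0.02. Kif20a was listed at 0 or below 1 FPKM in 12 of 20 mice. Mki67 differed by 0.29 (−0.46 to 1.04) and Top2a by 0.16 (−0.27 to 0.60). Pcna stood at 84.9, 72.8, 68.0, 63.9 and 60.7 FPKM in PZH mice, all inside the Control range, with a difference of −0.11 (−0.53 to 0.30, exact permutation p = 0.619). Plk1 did not pass the filter and was not tested, with 8.32, 0.637, 9.51, 0.433 and 0.452 FPKM in PZH mice.

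PZH + AOM/DSS mice were compared with AOM/DSS mice to see whether these genes differed with PZH under the carcinogen. No S phase gene of 23 and no mitosis gene of 23 tested was called by limma, beside 0.00629% of 15888 genes, and none had an unadjusted p under 0.05, beside 11.7% of all genes. The S phase differences were negative in 18 of 23 genes with a median of −0.13, against −0.04 over all genes. Of all 15888 genes, 8989 differences were negative and 6899 positive. Leaving out 1 mouse moved the S phase median from −0.25 (without AOM/DSS mouse 30) to 0.03 (without PZH + AOM/DSS mouse 13), and it was −0.04 without AOM/DSS mouse 23. Without PZH + AOM/DSS mouse 35, 808 genes in all were called, and no S phase or mitosis gene among them. The mitosis differences were positive in 14 of 23 with a median of 0.05, which leaving out 1 mouse moved from −0.10 (without PZH + AOM/DSS mouse 15) to 0.23 (without mouse 13). A p that misses the threshold does not show that the groups were alike, and the intervals below give the differences these 10 mice allow.

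The helicase genes Cdc45 (−0.91, −1.90 to 0.09) and Gins1 (−0.41, −0.96 to 0.14) and the ring gene Mcm7 (−0.35, −0.82 to 0.12) had the largest S phase estimates. Mcm7 had 33.7, 18.3, 38.3, 43.1 and 23.7 FPKM in PZH + AOM/DSS mice, 31.4 ± 10.2 on average (SD, n = 5), against 38.6 ± 3.95 in AOM/DSS mice. Mice 13 and 36 lay in the Control range and the others among or near AOM/DSS mice. Gins1 had 5.99, 4.16, 9.66, 11.5 and 5.00 FPKM, and Mcm3 21.4, 14.4, 30.5, 29.5 and 12.9 FPKM in the same order of mice. Mice 13 and 36 were low for these genes too, and mice 15 and 35 as high as AOM/DSS mice. Mouse 13 had the lowest value of its group in 35 of 47 genes. The smallest S phase differences were those of Mcm6 (0.01, −0.39 to 0.41) and Tyms (−0.03, −0.38 to 0.33).

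Pcna had 90.5, 71.8, 112.2, 136.6 and 69.4 FPKM in PZH + AOM/DSS mice, a spread that covers the AOM/DSS range on either side. The difference from AOM/DSS mice was −0.14 (−0.58 to 0.30), with an exact permutation p of 0.516. Plk1 (1.36, −0.39 to 3.12), Foxm1 (0.39, −0.45 to 1.24) and the spindle factor Tpx2 (0.34, −0.34 to 1.01) had the largest mitosis estimates, and the smallest were those of the spindle motor Kif11 (−0.01) and Aurkb (−0.01). Plk1 stood at 15.1, 5.56, 20.1, 0.813 and 7.39 FPKM. Mki67 differed by 0.18 (−0.95 to 1.32), with 23.7 FPKM in mouse 15 and 2.27 to 7.24 FPKM in the others, and Top2a by 0.10 (−0.36 to 0.57). Kif20a did not pass the filter on low values and was not tested, being listed at 0 or below 0.03 FPKM in 4 mice and at 3.14 FPKM in mouse 35. A listed 0 does not show that a gene was silent, since assembled transcripts entered no gene.

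Crypt base and progenitor markers summed to 53.9 to 69.0 FPKM in 4 PZH + AOM/DSS mice and to 169.6 FPKM in mouse 35. In AOM/DSS mice they summed to at least 112.6 FPKM. None of the 6 was called (lowest adjusted p 0.356, limma). At an unadjusted p under 0.05, 3 of the 6 were lower, beside 1305 of all 15888 genes tested. Leukocyte markers summed to 103.7 to 171.6 FPKM in PZH + AOM/DSS mice. Neutrophil markers (6 genes) had a median sum of 392.3 FPKM in AOM/DSS mice, against 173.8 FPKM where PZH was given as well. Of these, Ly6g alone went the other way, with means of 104.1 and 145.6 FPKM. At an unadjusted p under 0.05, 4 of 5 neutrophil markers tested were lower, and none was called (lowest adjusted p 0.356, limma). The part of these cells in the S phase values was not tested.

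**Figure D4:**
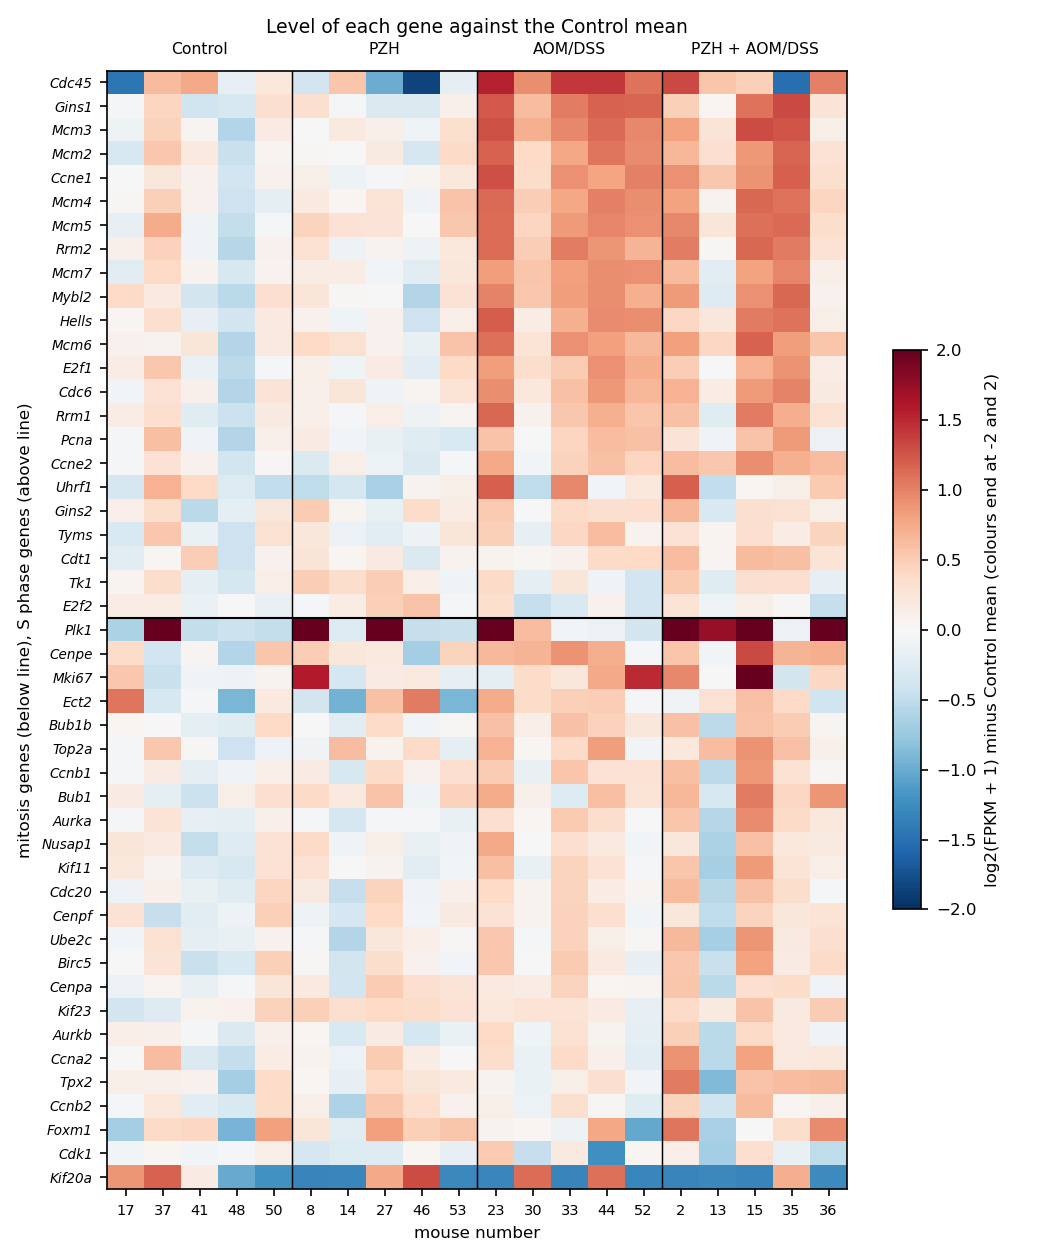
Level of each gene (rows) in each mouse (columns) as log2(FPKM + 1) minus the Control mean, with colours ending at −2 and 2; S phase genes above the line, mitosis genes below, each ordered by the difference of AOM/DSS from Control. Most of the upper rows are red (higher) in AOM/DSS mice and in PZH + AOM/DSS mice 2, 15 and 35. They are paler in AOM/DSS mouse 30 (S phase level 3.485) and in PZH + AOM/DSS mice 13 (3.32) and 36 (3.51).

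Against Control mice, PZH + AOM/DSS mice had 1 S phase gene called higher, beside 1.55% of 15616 genes, and 12 at an unadjusted p under 0.05, where 12.9% of all genes were higher. No mitosis gene was called of 23 tested, and 3 had an unadjusted p under 0.05 (Plk1, Top2a and Cenpe). The called gene was Ccne2, with 3.23, 4.29, 3.598, 2.37 and 3.42 FPKM in Control and 5.66, 5.28, 7.27, 6.07 and 5.66 FPKM in PZH + AOM/DSS mice. The groups did not overlap, and the log2 fold change of 0.68 had a standard error of 0.15 (limma, adjusted p = 0.0446). The call was lost without any 1 of 8 mice, at an adjusted p of up to 0.116. Ccne1 (0.77, adjusted p = 0.0601) and Mcm6 (0.76, adjusted p = 0.0606) also did not overlap and missed the threshold, and 4.18% of all genes were higher without overlap. With all 20 mice in one model, 8 S phase genes were called. Over all genes, 242 were higher and 136 lower, and with median of ratios scaling 217 and 216. The total of 378 became 78 without PZH + AOM/DSS mouse 15, 495 without mouse 13 and 29 without Control mice 17 and 50.

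Against PZH mice, PZH + AOM/DSS mice again had Ccne2 called among S phase genes (0.81, standard error 0.13, adjusted p = 0.0206, limma), beside 1.74% of 15636 genes called higher, and no mitosis gene, of which none had an unadjusted p under 0.05. Ccne2 had 2.54, 3.72, 3.02, 2.53 and 3.21 FPKM in PZH mice, all below the PZH + AOM/DSS mice. Ccne1 did not overlap either, where 5% of all genes were higher without overlap. The call was lost without PZH mouse 27 (adjusted p = 0.0591) or PZH mouse 53 (adjusted p = 0.053). An unadjusted p under 0.05 was found for 13 S phase genes, all higher, where 13% of all genes were higher. This comparison and the one with Control share the PZH + AOM/DSS mice, so that they are not independent. For Pcna the difference from PZH mice was 0.41 (−0.001 to 0.82, exact permutation p = 0.0714).

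The interaction over all 20 mice asks whether the difference made by AOM/DSS depended on PZH. No S phase gene of 23 and no mitosis gene of 24 was called by limma, beside 0.0118% of 16936 genes, and none had an unadjusted p under 0.05, beside 10.3% of all genes. The estimates were negative in 20 of 23 S phase genes, with a median of −0.21 against −0.05 over all genes, and in 14 of 24 mitosis genes. Over all genes, 9575 of 16936 estimates were negative, which is close to the share of mitosis genes. Leaving out 1 mouse moved the S phase median, to −0.09 without Control mouse 48 or PZH + AOM/DSS mouse 13, −0.11 without PZH + AOM/DSS mouse 36, −0.14 without AOM/DSS mouse 23 and −0.32 without AOM/DSS mouse 30. Of the S phase genes, Mcm5 had the most negative estimate, −0.41 (−1.04 to 0.22), followed by Mcm7 at −0.40 (−0.95 to 0.16), and Ccne2 was the highest S phase gene at 0.37 (−0.08 to 0.81). Over both classes the largest estimate was that of Plk1, 0.67 (−1.73 to 3.06).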

How the data were processed

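Total RNA was extracted from the colon of 20 mice and sequenced after ribosomal RNA was depleted. The methods of the study also name a poly(A) isolation step, which the labels do not. Per the methods of the study, the authors filtered reads with NGSQC v2.3.3, aligned them to mm10 with HISAT2 v2.1.0 and quantified transcripts with StringTie v1.3.3b. The deposited values were FPKM per transcript, for 118434 transcripts per mouse, without counts. The 22252 assembled transcripts (12.1 to 14.8% of the FPKM of a mouse) and 150 Ensembl transcripts missing from GENCODE M21 entered no gene.

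Genes that reached 0.5 FPKM in 5 or more of 10 compared mice (of 20 for the interaction) were tested as log2(FPKM + 1) with limma 3.58.1 (R 4.3.3), with an intensity trend and no covariates. The step was tested on simulated data. Named genes were Pcna, Mki67, Top2a, the 3 largest and 2 smallest differences per class in each of 3 main comparisons, and genes left untested. Of the other lists, the 2 largest called rises and falls were named. The other members given by role, Ccne1 and Ccne2 among them, were chosen after their values were seen. The members, lists and roles were chosen with earlier results of these data known. Alternatives were median of ratios scaling, other filters, a pseudocount of 0.1, 1 transcript per gene, quality weights, all 20 mice in one model and leaving out each mouse.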

Additional observations from a re-analysis of the deposited data

Results flagged for a closer look

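In 200 groups of 5 values (47 genes and 3 class levels in 4 groups), 12 held a mouse far from the others by Dixon's test (critical value 0.71), a test that chance passes in about 1 of 20 groups. In Control mice these were Mcm6 in mouse 48 (10.3 FPKM, the others 16.8 to 19.1), Tpx2 in mouse 48 (4.09 FPKM) and Plk1 in mouse 37 (7.03 FPKM, the others at most 0.460). In PZH mice they were Mki67 in mouse 8 (11.7 FPKM) and Cenpe in mouse 46 (2.20 FPKM). In AOM/DSS mice they were Mcm7 in mouse 30 (31.9 FPKM, the lowest), Plk1 in mouse 23 (17.7 FPKM), and Cenpe (3.99 FPKM) and Kif23 (2.74 FPKM) in mouse 52. In PZH + AOM/DSS mice they were Cenpf (3.24 FPKM) and Tpx2 (3.40 FPKM) in mouse 13 and Kif20a in mouse 35 (3.14 FPKM). None of the class levels held such a mouse.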

How the results depend on the processing

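No paired analysis was possible because the mouse numbers differ between the groups. Leaving out Control mice 17 and 50 was chosen after seeing the data. Then 9 S phase and 3 mitosis genes were called in AOM/DSS against Control, beside 1881 of 15381 genes called higher. Leaving out each mouse in turn gave 10 to 16 S phase and 0 to 1 mitosis genes there, 0 to 2 S phase genes for PZH + AOM/DSS against Control, and 0 to 2 against PZH. For PZH + AOM/DSS against Control, 0 S phase genes were called under median of ratios scaling, without a filter, with 1 transcript per gene and without Control mice 17 and 50, 2 with the 1 FPKM filter and with quality weights (and 1 mitosis gene, Plk1), and 8 with all 20 mice. Against PZH, 2 were called with the 1 FPKM filter, a pseudocount of 0.1, quality weights and all 20 mice, and 0 with 1 transcript per gene. All-gene counts for these 2 comparisons were 378 each, and 98 and 90 without a filter, 177 and 155 with 1 transcript per gene and 1503 and 1002 with all 20 mice. For PZH + AOM/DSS against AOM/DSS the count of 1 became 89 with all 20 mice and 808 without PZH + AOM/DSS mouse 35, and for the interaction the count of 2 became 130 with quality weights and 476 without PZH + AOM/DSS mouse 35. Leaving out 1 mouse moved the counts against Control to between 78 and 495 and those against PZH to between 54 (without PZH mouse 27) and 423. The causes were not tested.

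Leaving out 1 mouse moved the log2 difference of Pcna from 0.2927 to 0.5889 in AOM/DSS against Control, from −0.2594 to 0.03684 in PZH against Control, from −0.2782 to −0.03659 in PZH + AOM/DSS against AOM/DSS, from 0.1523 to 0.4485 against Control, and from 0.2739 to 0.5154 against PZH, where the exact permutation p was 0.0476 without PZH + AOM/DSS mouse 13 and 0.0397 without mouse 36.

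Signs turned only for differences that passed no test. In AOM/DSS against Control, Tk1 was 0.07747 with 1 transcript per gene, 0.04366 with quality weights and 0.05494 without Control mice 17 and 50, and Ccnb2 was −0.0908 under median of ratios scaling. In PZH against Control, Tk1 was −0.1052 and Top2a −0.1866 with 1 transcript per gene, Tyms −0.008629 and Birc5 −0.008239 under median of ratios scaling, and Mybl2 0.003077 with a pseudocount of 0.1, 0.0431 with 1 transcript per gene, 0.1255 with quality weights and 0.2377 without Control mice 17 and 50. In PZH + AOM/DSS against AOM/DSS, median of ratios scaling gave Tyms 0.003324, Aurkb 0.01487 and Kif11 0.02462, quality weights gave Mcm6 −0.01937, Aurkb 0.02172 and Kif11 0.01046, and 1 transcript per gene gave Aurkb 0.1362 and Top2a −0.1756. Leaving out 1 mouse moved Tk1 from −0.09925 to 0.08875, Foxm1 from −0.2845 to 0.1932 and Ccnb2 from −0.05591 to 0.1109 in AOM/DSS against Control. In PZH against Control it moved Tyms from −0.09665 to 0.1419, Mybl2 from −0.1384 to 0.1432, Cenpf from −0.1011 to 0.1371, Birc5 from −0.1027 to 0.1273 and Mki67 from −0.03576 to 0.4493. In PZH + AOM/DSS against AOM/DSS it moved Tyms from −0.1381 to 0.05827, Mcm6 from −0.1083 to 0.09894, Aurkb from −0.1124 to 0.1422, Kif11 from −0.1604 to 0.2188, Mki67 from −0.2745 to 0.455 and Top2a from −0.004661 to 0.2155.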
